A study of Homo sapiens with 32 samples.

Results

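The genes described here are 6 STAT factors (STAT2, STAT3, STAT4, STAT5A, STAT5B and STAT6) and 3 SOCS feedback genes (SOCS1, SOCS2 and SOCS3). They were chosen by name, matched through their Ensembl identifiers, and are 9 of the 48804 genes in the count table. All 9 passed the filter on low counts at both time points. They were followed in MDA-MB-468, a long-established line of triple-negative breast carcinoma cells, which was grown in 4 conditions for 24 h or 72 h. Cells received PBS alone (Control), 0.5 µM salinomycin (Sal), 15 µM dasatinib (Das) or both drugs together (S + D). Sal is an ionophore antibiotic and Das is an inhibitor of SRC family and ABL kinases. Each of the 8 groups held 4 biological replicates, which gave 32 libraries of 1 cell line.

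JAK kinases sit on the inner side of cytokine and interferon receptors and phosphorylate STAT proteins when a ligand binds. Phosphorylated STATs pair, enter the nucleus and switch on target genes, among them the SOCS genes, whose products bind JAKs or receptors and close the loop. STAT activity is set by phosphorylation, which RNA-seq does not measure, so the values below are amounts of messenger RNA (mRNA) only.

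The libraries held from 25692561 to 42769687 counts, with a median of 33301486.5. In each condition 3 libraries carried a replicate number and 1 did not, and the 8 unnumbered libraries deviated from their group means together (Pearson r from 0.52 to 0.67 between their deviations within a time point). Values without them, over the 12 numbered libraries of a time point, are therefore given where they changed a call, and for some further values. All 10 markers listed for the line were detected in every library, from 0.142 to 22.8 CPM of KRT14 to 2790 to 5920 CPM (library-scaled counts, defined under the processing steps) of EGFR. Their summed level was 11200 to 12300 CPM in the 72 h control and 5100 to 6610 CPM with S + D. The leukocyte gene PTPRC and the fibroblast gene DCN never rose above 0.132 and 0.07 CPM. PGR stayed at or under 0.0895 CPM, whereas ESR1 was detected at 3.64 to 12 CPM and ERBB2 at 56.8 to 192 CPM. Of the leukocyte list, 4 of 5 markers never reached 1 CPM and the summed level was 25.1 to 32.4 CPM in the 72 h control against 3.77 to 5.61 CPM with S + D, nearly all of it CD14. Of the fibroblast list, 3 of 5 stayed under 1 CPM and the sum was 23.8 to 32.5 CPM in the 72 h control and 68.8 to 122 CPM with S + D, nearly all of it COL1A1. The endothelial list, of which 3 of 4 markers were matched, summed to 5.2 to 7.96 CPM in the 72 h control and 0.352 to 0.681 CPM with S + D. The part of these markers in the results below was not tested.

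In untreated cells the STAT messages differed widely in level. Per kilobase of exon, STAT3 stood highest at 31.9 ± 0.35 CPM per kb (SD, n = 4, 72 h control), followed by STAT6 at 15.0 ± 0.92, STAT2 at 5.30 ± 0.0443, STAT5A at 3.11 ± 0.161 and STAT5B at 2.77 ± 0.23. STAT4, a STAT best known from lymphocytes, was at 0.102 ± 0.0118 CPM per kb and rested on 14 to 19 reads per library. STAT5A and STAT5B were the pair of neighbours in this order whose means differed by less than the sum of their SDs. Among the feedback genes, SOCS3 was at 4.81 ± 0.448 CPM per kb, SOCS1 at 0.715 ± 0.129 and SOCS2 at 0.452 ± 0.0493. The length used is that of all annotated exons of a gene together, and part of the order depends on it. Without division by length, STAT5B was at 33.5 CPM and STAT5A at 19.9. In the same way SOCS2 was at 2.93 CPM and SOCS1 at 1.28 (72 h control means).

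Treatment changed the make-up of the 6 STAT messages more than their sum. The sum was 58.2 ± 0.738 CPM per kb in the 72 h control, 60.4 ± 3.35 under Sal, 51.0 ± 3.65 under Das and 54.7 ± 6.49 under S + D. STAT3 made up 54.9 ± 1.21% of that sum in the control and 32.6 ± 1.96% under Sal, 37.3 ± 3.18% under Das and 33.8 ± 1.25% under S + D. STAT2 went from 9.12 ± 0.124% to 50.3 ± 3.54% under Sal, 24.9 ± 7.83% under Das and 44.1 ± 2.41% under S + D, and thereby exceeded STAT3 with Sal and with S + D. At 24 h the share of STAT2 was 10.5 ± 0.329% in the control, 20 ± 7.07% under Sal, 14.9 ± 0.574% under Das and 23.5 ± 1.52% under S + D. No test was made on these shares, and the sum and the shares depend on the exon lengths used. In bulk RNA, fewer cells expressing a gene and less of its RNA per cell cannot be told apart.

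**Figure D1:**
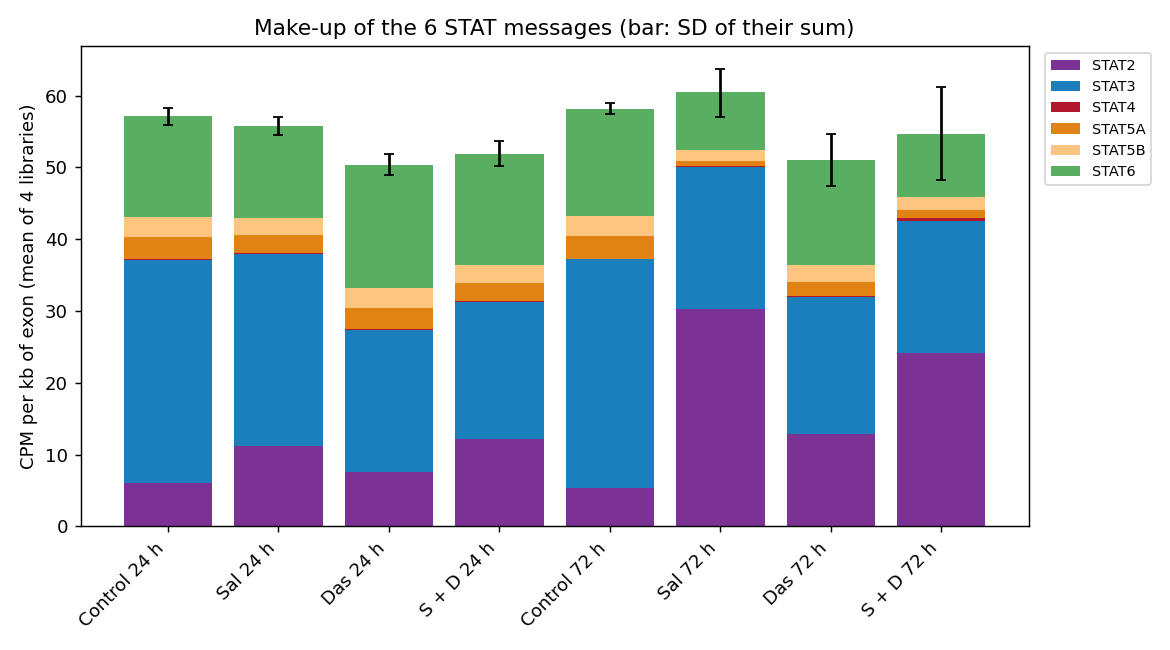
Stacked mean level of the 6 STAT genes (y axis, CPM per kb of exon) in the 8 conditions (x axis), each bar being the mean of 4 libraries and the black line the SD of the sum. The purple STAT2 segment grows from 9.12% of the 72 h control to 50.3% with Sal, while the height of the bars runs from 50.4 to 60.4 CPM per kb.

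Changes were tested with the quasi-likelihood test of edgeR, and a gene was called at an adjusted p (Benjamini-Hochberg over all genes tested) under 0.01. With Sal at 24 h, 1 of the 9 genes was called higher and 1 lower, where 4.55% of all 16357 genes tested were called higher and 2.23% lower. With Das at 24 h, 2 were higher and 2 lower, against 6.99% and 6.88% of all genes. With S + D at 24 h, 2 were higher and 2 lower, against 17.1% and 16.5%. With Sal at 72 h, 2 were higher and 5 lower, against 26.3% and 26.8% of the 16682 genes tested. With Das at 72 h, 1 was higher and 4 lower, against 10.5% and 9.36%. With S + D at 72 h, 3 were higher and 6 lower, so that all 9 were called, against 27.0% and 27.9% of all genes. Over the 9 genes the median change on the log2 scale at 72 h was -0.71 for Sal, -0.31 for Das and -0.78 for S + D, where that over all genes was 0.004, 0.02 and 0.01. These comparisons share the control libraries of their time point.

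**Figure D2:**
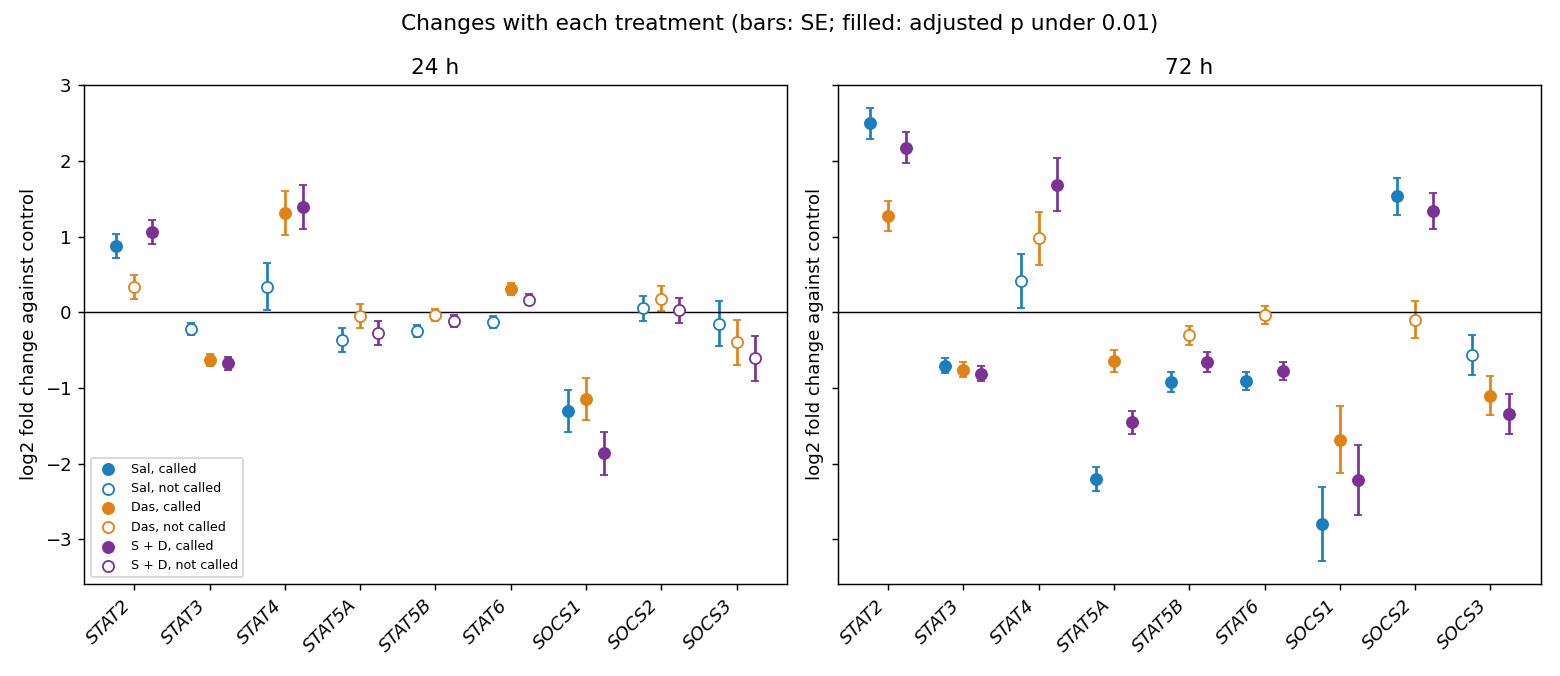
log2 fold change against the control of the same time point (y axis) for the 9 genes (x axis) at 24 h and 72 h, with bars for the SE and filled points for an adjusted p under 0.01. STAT2 rises to 2.5 with Sal at 72 h, SOCS1 lies below 0 in all 6 comparisons, and SOCS2 is near 0 at 24 h and at 1.53 with Sal at 72 h.

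STAT2, the STAT that joins IRF9 in the interferon-activated factor ISGF3, showed the largest rise of the 9 genes (GRCh37 chromosome 12, 56735381 to 56753987, minus strand, ENSG00000170581). At 72 h the control libraries were at 49.0, 49.1, 49.9 and 49.5 CPM and the Sal libraries at 276, 280, 291 and 282 CPM (the unnumbered library first, then replicates 1 to 3, here and below). The S + D libraries were at 265, 174, 232 and 231 CPM, and the Das libraries at 110, 168, 138 and 64.6 CPM. Every treated library lay above every control library, the Sal libraries lay close together, and the Das libraries spread over more than their own lowest value.

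The log2 fold change was 2.5 ± 0.21 (SE, n = 4 against 4) with Sal (5.64-fold, adjusted p = 4.78e-08), 1.27 ± 0.20 with Das (adjusted p = 0.000166) and 2.17 ± 0.21 with S + D (adjusted p = 1.18e-07). At 24 h the control was at 58.1, 53.4, 55.2 and 57.3 CPM, Sal at 160, 83.5, 86.3 and 86.3, Das at 69.0, 71.4, 73.5 and 65.5, and S + D at 130, 108, 104 and 113 CPM. All treated libraries again lay above all control libraries, and the unnumbered Sal library stood apart from its group. STAT2 rose with Sal (0.88 ± 0.16, adjusted p = 0.00169) and with S + D (1.06 ± 0.16, adjusted p = 5.95e-05), and had a log2 fold change of 0.34 with Das (adjusted p = 0.141). Over the numbered libraries the rise with Sal was 0.64 ± 0.06 (adjusted p = 6.46e-08) and that with Das 0.38 ± 0.06 (adjusted p = 1.65e-05). With only the control and Sal libraries in the fit, the adjusted p of the Sal change was 0.0228. The 2 genes whose log2 CPM followed STAT2 most closely over the 32 libraries, among 13726 genes at a mean of 1 CPM or more, were EML6 (Pearson r = 0.993) and ZNF331 (r = 0.984), and these libraries share their treatments.

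The promoter windows of STAT2 and SOCS1 are shown because these genes had the largest rise and the largest fall. They are the 250 bases before the start site in RefSeq (GRCh38.p14, a later build than that of the counts), 5′ to 3′ on the strand of the gene, STAT2 at chr12:56360108-56360357 and SOCS1 at chr16:11256205-11256454, both on the minus strand.
STAT2: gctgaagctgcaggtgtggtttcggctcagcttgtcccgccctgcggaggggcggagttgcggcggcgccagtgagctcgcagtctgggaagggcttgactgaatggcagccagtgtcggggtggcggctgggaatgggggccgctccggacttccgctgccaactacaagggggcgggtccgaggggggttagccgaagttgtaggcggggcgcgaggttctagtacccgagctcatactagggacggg
SOCS1: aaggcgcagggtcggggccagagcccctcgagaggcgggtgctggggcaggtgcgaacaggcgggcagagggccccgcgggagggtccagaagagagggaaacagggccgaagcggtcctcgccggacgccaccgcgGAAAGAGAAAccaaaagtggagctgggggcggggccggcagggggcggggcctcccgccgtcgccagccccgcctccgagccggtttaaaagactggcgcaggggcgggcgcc
The capitals in the SOCS1 window mark GAAANNGAAA, the core repeat of the interferon-stimulated response element, which starts 113 bases before the start site. It was searched on both strands and occurs in 1061 (3.02%) of 35116 windows of this length. The STAT dimer site TTCNNNGAA, whose letters read alike on both strands, occurs in 2306 windows (6.57%). Windows were matched for 8 of the 9 genes, all but SOCS2. The dimer site was in no window of these 8 genes, and of these windows only that of SOCS1 held the core repeat. This holds for the listed start sites only. For SOCS3 the windows were chr17:78360926-78361175 and chr17:78359668-78359917. Other start sites of these genes and bases outside the windows were not searched, so a site there may have been missed. A match is a description of the letters, and binding was not measured.

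STAT3, which relays IL-6 family cytokines and was the most abundant STAT message in the control, fell with every treatment at 72 h (GRCh37 chromosome 17, 40465342 to 40540558, minus strand, ENSG00000168610). The 72 h control libraries were at 360, 361, 357 and 352 CPM, the Sal libraries at 260, 213, 208 and 205, the Das libraries at 227, 207, 204 and 212, and the S + D libraries at 228, 184, 208 and 206 CPM. No treated library reached the control range, and the 3 treatments overlapped each other. The log2 fold change was -0.71 ± 0.10 with Sal (adjusted p = 7.98e-06), -0.76 ± 0.10 with Das (adjusted p = 3.31e-05) and -0.81 ± 0.10 with S + D (adjusted p = 1.76e-06).

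STAT3 also fell at 24 h with Das and with S + D. The 24 h control was at 331, 349, 352 and 361 CPM, Das at 203, 234, 221 and 232 and S + D at 235, 206, 205 and 206, with no overlap with the control. The log2 fold changes were -0.63 ± 0.08 with Das (adjusted p = 4.88e-05) and -0.68 ± 0.08 with S + D (adjusted p = 7.47e-06). Sal libraries were at 264, 323, 305 and 311 CPM, which gave -0.22 ± 0.08 (adjusted p = 0.0904) and, over the numbered libraries, -0.16 ± 0.04 (adjusted p = 0.00694). At 24 h STAT3 was also lower with S + D than with Sal (-0.46 ± 0.08, adjusted p = 0.000858), the only one of the 9 genes called in that comparison, in which 12.9% of all genes were called. The genes most like STAT3 over the libraries were ACTN1 (r = 0.967) and FZD5 (r = 0.955).

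STAT5A and STAT5B, close paralogs that relay prolactin and other cytokines, both fell at 72 h with Sal and S + D. They lie next to each other on GRCh37 chromosome 17 (STAT5A at 40439565 to 40463961, plus strand, ENSG00000126561; STAT5B at 40351194 to 40440651, minus strand, ENSG00000173757). They share 415 exon bases on opposite strands, which is 6.5% of the exon length of STAT5A and 3.4% of that of STAT5B. The use of strand in counting is not given in the sources used here, and similar stretches of the paralogs may also share reads, so their split is uncertain to that extent.

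STAT5A was at 18.5, 19.6, 20.7 and 20.7 CPM in the 72 h control, at 4.12, 5.50, 3.89 and 4.04 with Sal, at 14.8, 10.4, 11.3 and 14.5 with Das and at 6.71, 8.58, 6.99 and 7.16 with S + D. The 4 conditions did not overlap, and their order from the highest was control, Das, S + D and Sal. STAT5A had a log2 fold change of -2.20 ± 0.16 with Sal (4.59-fold lower, adjusted p = 1.25e-08), -1.45 ± 0.15 with S + D (adjusted p = 3.35e-07) and -0.65 ± 0.15 with Das (adjusted p = 0.00319). The call with Das was lost without control replicate 2 or 3 or Das replicate 1 or 2, with adjusted p up to 0.0191 when 1 library was left out. At 24 h no treatment was called, with log2 fold changes of -0.37 under Sal, -0.05 under Das and -0.27 under S + D (-0.29 and called over the numbered libraries, adjusted p = 0.00434), and the unnumbered Sal library was at 9.64 CPM against 15.5 to 18.9 for the other libraries of its group.

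STAT5B was at 37.4, 31.1, 33.4 and 32.1 CPM in the 72 h control, at 22.2, 16.9, 14.5 and 18 under Sal, at 29.4, 24.4, 24.2 and 30.9 under Das and at 21.0, 20.7, 21.4 and 22.9 under S + D. Sal and S + D libraries all lay below the control and overlapped each other, and the highest Das library, at 30.9 CPM, was close to the lowest control library. Its log2 fold change was -0.92 ± 0.13 with Sal (adjusted p = 1.1e-05), -0.66 ± 0.13 with S + D (adjusted p = 0.000298) and -0.31 ± 0.13 with Das (adjusted p = 0.0809). At 24 h it had -0.25 with Sal (adjusted p = 0.0467), -0.03 with Das and -0.12 with S + D. The Sal values at 24 h over the numbered libraries were -0.20 for STAT5A and -0.15 for STAT5B, neither of them called. The genes most like STAT5A were GLIPR2 and IGFBP4 (r = 0.974 each), and those most like STAT5B were CCDC136 and ANKRD13B (r = 0.96 each).

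STAT6, the STAT of IL-4 and IL-13, fell at 72 h with Sal and with S + D (GRCh37 chromosome 12, 57489191 to 57525922, minus strand, ENSG00000166888). The 72 h control was at 111, 102, 107 and 118 CPM and Das at 111, 104, 102 and 111 CPM, which overlapped throughout. Sal was at 71.3, 62.3, 50.1 and 51.6 CPM and S + D at 72.5, 56.1, 65.2 and 63.8 CPM, all below the control. STAT6 fell with Sal (log2 fold change -0.91 ± 0.12, adjusted p = 3.8e-06) and with S + D (-0.78 ± 0.12, adjusted p = 1.83e-05), and was at -0.03 with Das (95% interval -0.26 to 0.20). At 24 h the order differed. Das libraries, at 124, 125, 131 and 120 CPM, all exceeded the control at 110, 97.0, 99.3 and 104 CPM (0.31 ± 0.08, adjusted p = 0.0074), and this call was lost when any 1 of the 6 numbered libraries compared was left out (adjusted p up to 0.0283). Log2 fold changes at 24 h were -0.13 with Sal (-0.03 over the numbered libraries) and 0.17 with S + D, the second being 0.22 and called over the numbered libraries (adjusted p = 0.00122). PSEN2 (r = 0.969) and B4GALNT3 (r = 0.968) followed STAT6 most closely.

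STAT4 was the least expressed of the 6 and rose with S + D at both time points and with Das at 24 h (GRCh37 chromosome 2, 191894302 to 192016322, minus strand, ENSG00000138378). Of its exon bases, 5.7% are shared with opposite-strand transcripts such as STAT4-AS1. At 72 h the control was at 0.485, 0.502, 0.503 and 0.389 CPM, Sal at 0.915, 0.455, 0.432 and 0.709, Das at 1.54, 0.871, 0.751 and 0.528 and S + D at 2.25, 1.41, 1.41 and 1.07 CPM. The Das and S + D libraries were all above the control, the Sal libraries overlapped it, and the unnumbered library was the highest of its group under each treatment. STAT4 had a log2 fold change of 1.69 ± 0.34 with S + D (adjusted p = 0.000343), 0.98 ± 0.35 with Das (adjusted p = 0.0392) and 0.41 ± 0.36 with Sal (adjusted p = 0.328). Without the unnumbered libraries these were 1.46, 0.61 and 0.17, and only the first was called.

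At 24 h the control held 10 to 17 reads per library, Das 19 to 50 and S + D 22 to 41. STAT4 rose with Das (1.31 ± 0.29, adjusted p = 0.0037) and S + D (1.39 ± 0.29, adjusted p = 0.00104) and was at 0.34 with Sal. The call with Das was lost over the numbered libraries (1.14, adjusted p = 0.011) and in 5 of 8 fits that left out 1 library (adjusted p up to 0.0163, lost without control replicate 1 or 2, Das replicate 2 or either unnumbered library). GNG7 (r = 0.873) and PIR (r = 0.862) were the most similar genes.

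SOCS1, an inhibitor that binds JAKs directly and whose promoter window is printed above, was the only one of the 9 genes called lower in all 6 comparisons with the control (GRCh37 chromosome 16, 11348274 to 11350061, minus strand, ENSG00000185338). At 24 h the control libraries were at 2.77, 2.09, 2.14 and 2.42 CPM, Sal at 0.757, 1.06, 1.04 and 0.992, Das at 1.75, 0.750, 0.924 and 0.717 and S + D at 0.703, 0.754, 0.703 and 0.359 CPM. No treated library reached the control range, although the unnumbered Das library came closest. The log2 fold change was -1.30 ± 0.28 with Sal (adjusted p = 0.0051), -1.14 ± 0.27 with Das (adjusted p = 0.00596) and -1.86 ± 0.29 with S + D (adjusted p = 7.03e-05).

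The calls with a single drug at 24 h lie close to the threshold. Leaving out any 1 of the 8 libraries compared moved the adjusted p with Sal to between 0.0101 and 0.0171. With Das it ran from 0.000262 without the unnumbered Das library to 0.0246, and the call was lost in 7 of 8 cases. Over the numbered libraries both drugs were called.

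At 72 h the counts of SOCS1 were low. The control held 58, 35, 51 and 37 reads (1.03 to 1.56 CPM), Sal 15, 3, 2 and 4 reads (0.0664 to 0.381 CPM), Das 21, 6, 6 and 21 reads and S + D 15, 12, 6 and 5 reads. No treated library overlapped the control. Summed over 4 libraries and corrected for library size, the Sal count of 24 against 181 in the control gave a ratio of 0.148 (exact 95% interval 0.0923 to 0.227, counting error only), the Das count of 54 gave 0.315 (0.228 to 0.43) and the S + D count of 38 gave 0.213 (0.146 to 0.304). The fitted log2 fold changes were -2.80 ± 0.49 (adjusted p = 8.15e-05), -1.68 ± 0.44 (adjusted p = 0.00742) and -2.21 ± 0.46 (adjusted p = 0.000401) in the same order. Without the unnumbered libraries the Sal value was -3.49 ± 0.53. The Das call was lost without any 1 of the control libraries or Das replicate 1 or 2 (adjusted p up to 0.0318). NAP1L4 (r = 0.963) and POLR2F (r = 0.957) were the genes most like SOCS1.

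SOCS2, which restrains growth hormone and STAT5 signaling, went the other way and rose only at 72 h and only in the conditions that held Sal, among the comparisons made with the control (GRCh37 chromosome 12, 93963590 to 93977263, plus strand, ENSG00000120833). The 72 h control was at 2.5, 3.18, 2.86 and 3.17 CPM and Das at 2.60, 3.30, 2.57 and 2.52 CPM. Sal was at 4.45, 9.94, 10.2 and 9.71 CPM and S + D at 5.00, 8.87, 7.67 and 8.38 CPM. All libraries with Sal or S + D lay above the control and Das libraries, and the unnumbered library was the lowest of both groups. SOCS2 had a log2 fold change of 1.53 ± 0.24 with Sal (adjusted p = 2.8e-05), 1.33 ± 0.24 with S + D (adjusted p = 0.000104) and -0.10 ± 0.24 with Das (95% interval -0.58 to 0.38). At 24 h all groups overlapped, and the log2 fold changes were 0.05 under Sal, 0.18 under Das and 0.03 under S + D. Of its exon bases 4.3% are shared with the opposite-strand gene SOCS2-AS1. FICD (r = 0.934) and SULT1A1 (r = 0.929) were most similar.

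SOCS3, which blocks signaling through the IL-6 receptor chain, fell at 72 h with Das and with S + D (GRCh37 chromosome 17, 76352859 to 76356158, minus strand, ENSG00000184557). The 72 h control was at 12.8, 11.6, 14.1 and 14.1 CPM, Sal at 12.7, 8.61, 8.17 and 6.55, Das at 10.3, 4.66, 5.43 and 4.17 and S + D at 7.13, 4.16, 4.77 and 4.89 CPM. The unnumbered library was the highest of every treated group, and it alone placed Sal within the control range. The log2 fold change was -1.34 ± 0.26 with S + D (adjusted p = 0.000253), -1.10 ± 0.26 with Das (adjusted p = 0.00411) and -0.56 ± 0.26 with Sal (adjusted p = 0.0668). Over the numbered libraries these values, in the same order, were -1.55, -1.49 and -0.79 ± 0.16, and the Sal value was then called (adjusted p = 0.000442). The Das call was lost without control replicate 2 or 3 or Das replicate 1 or 2 (adjusted p up to 0.0186).

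At 24 h the unnumbered library was likewise the highest of each group, for example 8.79 CPM against 4.33, 6.03 and 5.87 in the control. No 24 h change was called over all libraries (-0.15 under Sal, -0.39 under Das and -0.61 under S + D). Over the numbered libraries the Das value of -0.49 (adjusted p = 0.00627) and the S + D value of -0.75 (adjusted p = 0.000114) were called. PDZK1IP1 (r = 0.913) and STC1 (r = 0.907) followed SOCS3 most closely.

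**Figure D3:**
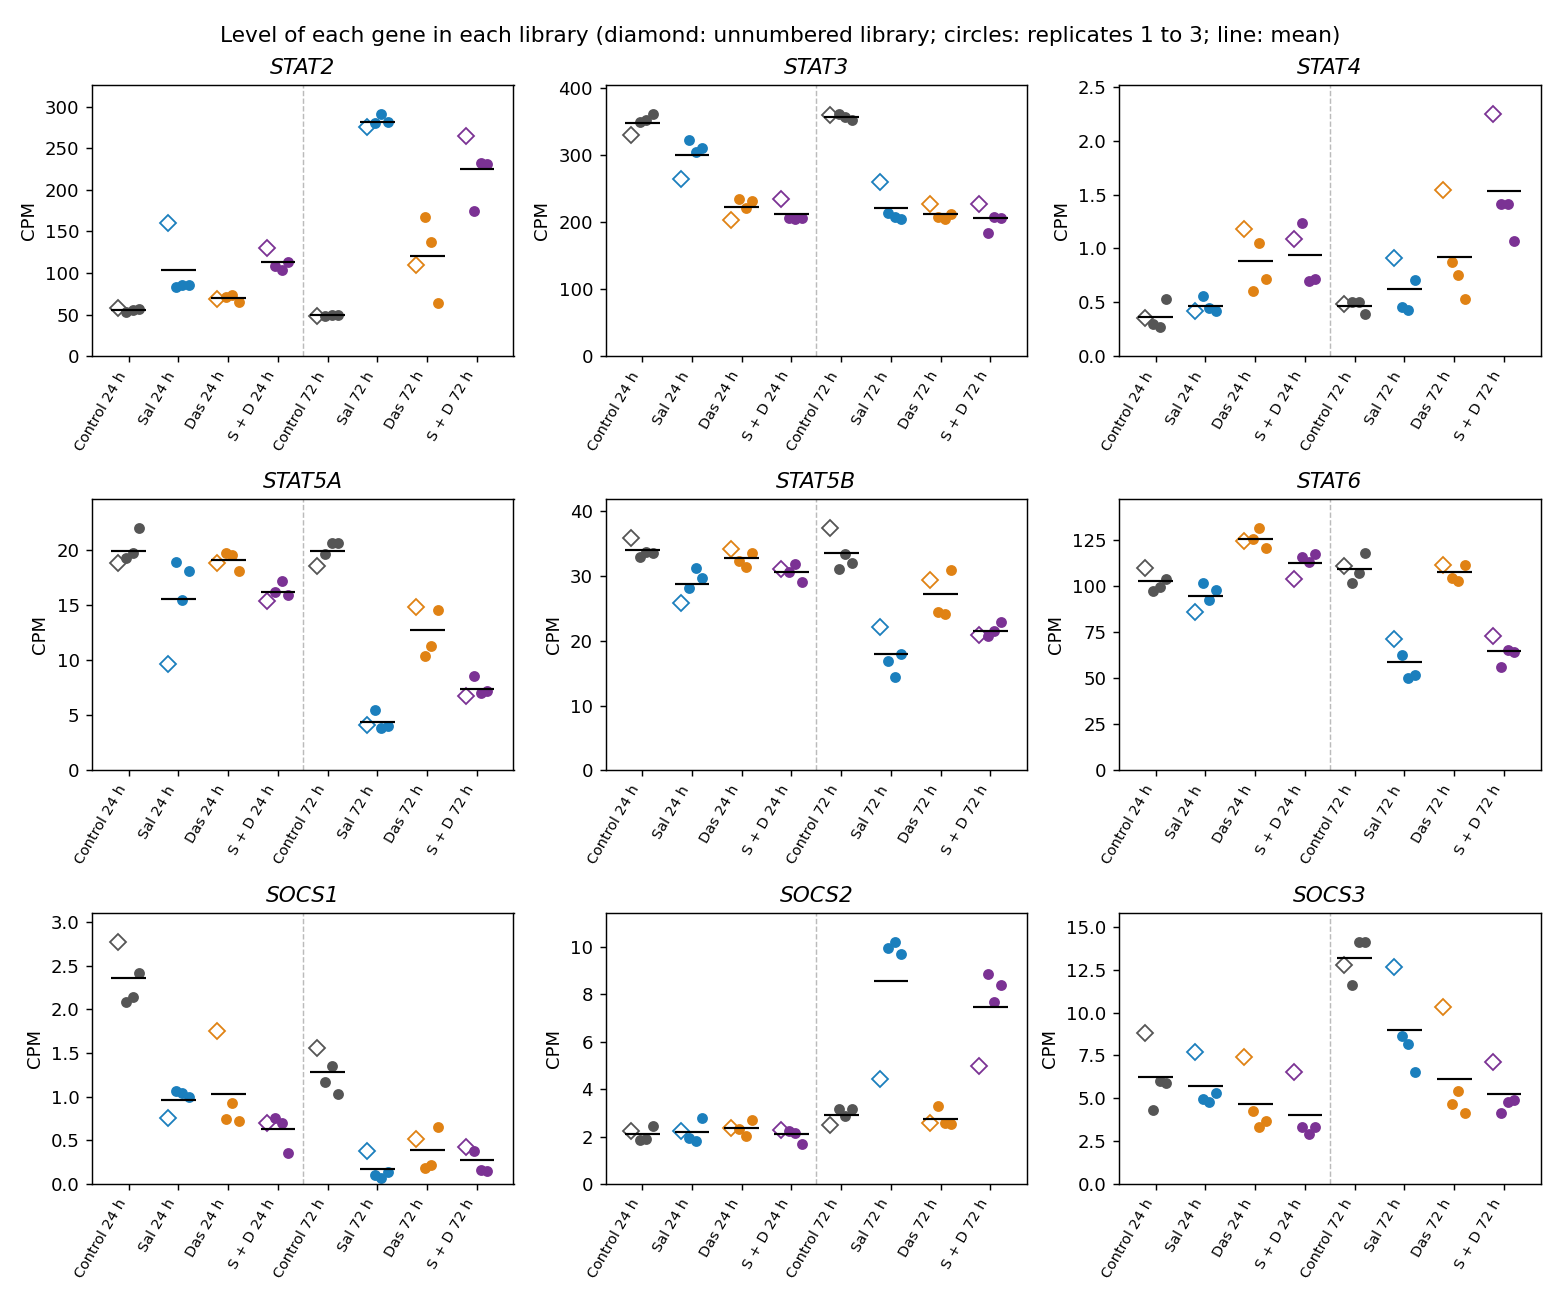
Level of each of the 9 genes (y axis, CPM, starting at 0) in all 32 libraries, by condition (x axis). Open diamonds are the unnumbered libraries, circles are replicates 1 to 3 and lines are group means. The unnumbered Sal library at 24 h stands at 160 CPM for STAT2, and the unnumbered libraries are the highest of all treated groups for SOCS3.

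The effect of the second drug was examined by comparing S + D with each drug alone. Against Sal at 72 h, only STAT5A was called, being higher with S + D (0.75 ± 0.15, adjusted p = 0.00625), where 3.01% of all genes were called, and it missed the threshold over the numbered libraries (0.76, adjusted p = 0.0126) and without any of 6 of the 8 libraries (adjusted p up to 0.0278). STAT2 had a log2 difference of -0.32 (95% interval -0.71 to 0.06) and STAT3 one of -0.10 (-0.29 to 0.09). STAT4 was at 1.27 ± 0.34 (adjusted p = 0.0255), which DESeq2 called. SOCS3 was at -0.78 ± 0.26 (adjusted p = 0.0785) and was called over the numbered libraries (-0.75 ± 0.16, adjusted p = 0.00872). Against Das at 72 h, STAT2 (0.90 ± 0.20, adjusted p = 0.00135) and SOCS2 (1.43 ± 0.24, adjusted p = 0.000144) were higher with S + D, and STAT5A (-0.81 ± 0.15, adjusted p = 0.000368) and STAT6 (-0.75 ± 0.12, adjusted p = 8.21e-05) were lower, so that 4 of 9 were called where 32.1% of all genes were. STAT2 lost its call over the numbered libraries (0.77, adjusted p = 0.0155). Against Das at 24 h, STAT2 was the only gene called (0.72 ± 0.16, adjusted p = 0.0057; 8.49% of all genes), and leaving out any 1 of the 8 libraries moved its adjusted p to between 0.0108 and 0.02. The numbered libraries at 24 h gave further calls, in which S + D exceeded Sal for STAT2 (0.35 ± 0.05) and STAT6 (0.25 ± 0.05) and was below Sal for SOCS3 (-0.66 ± 0.14) and below Das for STAT3 (-0.17 ± 0.04). Leaving out only the unnumbered Das library at 72 h gave a call for STAT4 in S + D against Das (adjusted p = 0.00859, against 0.0839 over all libraries).

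Whether both drugs together gave the sum of the single changes was tested by an interaction on the log2 scale, where 0 stands for the sum. At 24 h none of the 9 genes was called, by edgeR or DESeq2, against 0.0306% of all genes, 0 had an unadjusted p under 0.05, and their interaction values ran from -0.26 to 0.58. At 72 h, 3 of 9 were called, against 7.52% of all genes. STAT2 rose by less than the sum (-1.60 ± 0.28, adjusted p = 0.00133), and STAT5A (1.39 ± 0.21, adjusted p = 0.000531) and STAT3 (0.66 ± 0.14, adjusted p = 0.00434) fell by less than the sum. The STAT3 call was lost in 6 of 16 fits that left out 1 library (adjusted p up to 0.0134). SOCS1 had the largest value (2.26 ± 0.70, adjusted p = 0.0324), at counts of 2 to 58 reads, and STAT5B had 0.57 ± 0.19 (adjusted p = 0.0406). Both were called without the unnumbered Sal library at 72 h (SOCS1 at 3.06, adjusted p = 0.00565, and STAT5B at 0.69, adjusted p = 0.00857). Neither was called over the numbered libraries (SOCS1 at 2.82, adjusted p = 0.0168, and STAT5B at 0.68, adjusted p = 0.0125). Both were called with a replicate block, with a term for the unnumbered libraries and with all 32 libraries in 1 fit. The lowest adjusted p over the alternative settings was 0.00709 for SOCS1 and 0.00585 for STAT5B. SOCS2 (-0.10), STAT6 (0.16), STAT4 (0.29) and SOCS3 (0.32) were not called. STAT4 was at 0.67 and SOCS3 at 0.74 over the numbered libraries, neither of them called.

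**Figure D4:**
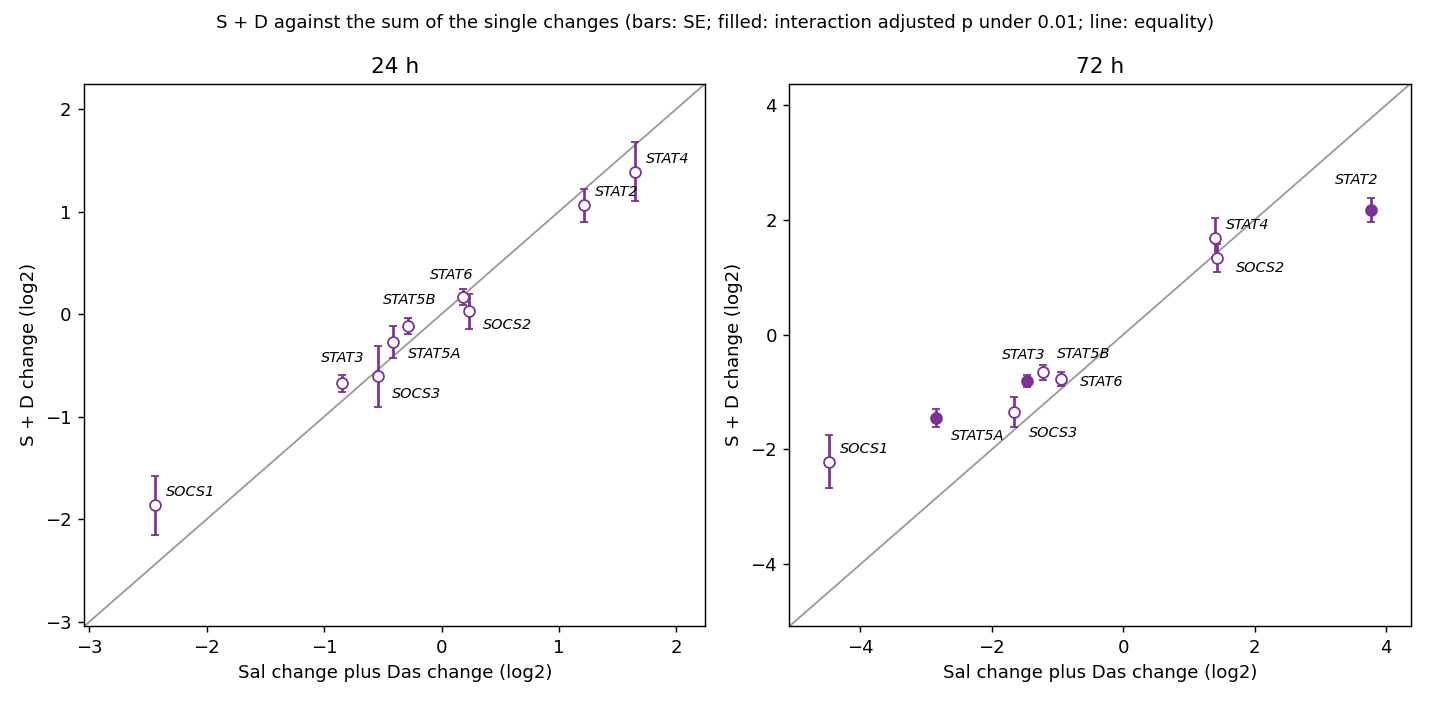
log2 fold change with S + D (y axis, bars for its SE) against the sum of the log2 fold changes with Sal and with Das (x axis) at 24 h and 72 h, with a grey line where both are equal. Filled points have an interaction at an adjusted p under 0.01, which at 72 h are STAT2 below the line and STAT3 and STAT5A above it.

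Time in PBS was examined first. Between 24 h and 72 h of PBS none of the 9 was called, against 2.76% of all 17227 genes tested over both time points, 3 of the 9 had an unadjusted p under 0.05 and DESeq2 called 1, SOCS3. The largest value was that of SOCS3 (1.07 ± 0.29, adjusted p = 0.0223), whose mean went from 6.26 ± 1.86 to 13.2 ± 1.22 CPM, and it was called over the numbered libraries (1.29 ± 0.14, adjusted p = 8.53e-07). SOCS1 was at -0.88 ± 0.34 (adjusted p = 0.119) and SOCS2 at 0.47 ± 0.21 (adjusted p = 0.192).

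The response to Sal differed between the time points. Its difference between 72 h and 24 h was called for 6 of 9 genes, against 21.9% of all genes. It was 1.62 ± 0.27 on the log2 scale for STAT2 (adjusted p = 4.11e-05), 1.49 ± 0.30 for SOCS2 (adjusted p = 0.000314), -1.82 ± 0.21 for STAT5A (adjusted p = 3.89e-07), -0.77 ± 0.13 for STAT6, -0.66 ± 0.15 for STAT5B and -0.48 ± 0.12 for STAT3. SOCS1 had -1.48 ± 0.55 (adjusted p = 0.0376) and was called without the unnumbered Sal library at 72 h (-2.29, adjusted p = 0.00336). The response to S + D changed for 4 of 9, against 16.3% of all genes, which were STAT2 (1.17 ± 0.27), SOCS2 (1.36 ± 0.30), STAT5A (-1.13 ± 0.21) and STAT6 (-0.89 ± 0.13). For Das, no gene of the 9 was called, against 0.226% of all genes, DESeq2 called 0, and 3 of the 9 had an unadjusted p under 0.05, STAT2 (0.96 ± 0.27, adjusted p = 0.0742), STAT5A (-0.57 ± 0.21) and STAT6 (-0.31 ± 0.13). Without Das replicate 3 at 72 h, STAT2 was at 1.17 and called (adjusted p = 0.0022). Over the numbered libraries the responses of SOCS3 to all 3 treatments also changed with time (-0.69 for Sal, -0.98 for Das and -0.77 for S + D), as did those of SOCS1 to Sal (-2.39) and of STAT5B to S + D (-0.45).

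The members of the pathway upstream of the STATs were described from lists of textbook genes. Of the 4 JAK kinases, which phosphorylate the STATs, 3 rose with Sal and with S + D at 72 h and 1 with Das. Of all genes tested at 72 h, 26.3% were called higher and 26.8% lower under Sal, 10.5% and 9.36% under Das, and 27.0% and 27.9% under S + D, and the counts of each list below stand beside these shares. JAK3 went from 3.43 ± 0.267 CPM in the control to 30.3 ± 4.09 under Sal, 12.8 ± 5.18 under Das and 33.1 ± 3.39 under S + D (log2 fold change 3.25 ± 0.26, adjusted p = 2.02e-08). JAK1 was at 244 ± 9.14 CPM in the control and 448 ± 32.6 with S + D (0.86 ± 0.10), and TYK2 at 399 ± 60.5 and 718 ± 93.3 (0.83 ± 0.17). JAK2 was at 21.1 ± 3.69 and 23.5 ± 3.62 CPM (0.14 ± 0.19, adjusted p = 0.534).

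Of 26 cytokine ligands, 6 were expressed well enough to test at 72 h, of which 2 rose and 2 fell with S + D. TSLP rose by 3.19 on the log2 scale from 1.08 ± 0.448 CPM, and LIF, an IL-6 family cytokine, was at 35.2 ± 14.7 CPM in the control and 4.90 ± 1.7 with S + D (-2.86 ± 0.33). CLCF1 was at -1.60 ± 0.27. Of 28 receptor genes, 26 were tested, and 5 rose and 14 fell with S + D (median log2 fold change -0.70, against 0.01 over all genes). CSF2RB, the shared chain of the GM-CSF receptor family, went from 0.998 ± 0.145 to 19.2 ± 2.33 CPM, IL6R from 2.48 ± 1.04 to 47.6 ± 5.45, and IL20RA from 18.6 ± 2.53 to 2.03 ± 0.238. With Sal alone 4 receptors rose and 13 fell, and with Das 2 rose and 8 fell, where all genes gave 26.3% and 26.8% under Sal, 10.5% and 9.36% under Das, and 27.0% and 27.9% under S + D.

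Other negative regulators moved in both directions. Of the other SOCS family genes, 4 of 5 were matched by symbol and tested, all but SOCS7. At 72 h, 1 was called higher and 1 lower with Sal, against 26.3% and 26.8% of all genes. With Das 1 was higher and 1 lower, against 10.5% and 9.36%. With S + D 0 were higher and 2 lower, against 27.0% and 27.9%. At 72 h SOCS6 went from 30.4 ± 2.36 CPM to 12.8 ± 0.727 with Sal and 12.4 ± 1.29 with S + D (log2 fold change -1.32 ± 0.13, adjusted p = 1.97e-07). CISH, a STAT5 target and inhibitor, went from 26 ± 3.3 to 12.1 ± 1.17 CPM with S + D (-1.12 ± 0.18, adjusted p = 2.61e-05). SOCS4 rose with Sal (0.74 ± 0.15, adjusted p = 0.000455) and had 0.47 with S + D (adjusted p = 0.0121), and SOCS5 was at 0.05 with S + D (adjusted p = 0.784). Of 11 further brakes, 1 rose and 6 fell with S + D, against 27.0% and 27.9% of all genes. The adaptor SH2B3 was at 11.8 ± 0.836 CPM in the control and 3.09 ± 0.77 with S + D (-1.95 ± 0.22), PIAS1 at -1.04 ± 0.24 and PIAS3, an inhibitor of STAT3, at 0.72 ± 0.12.

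Targets of the STATs were taken from lists of the same kind. STAT2 rose at 72 h, and of 15 interferon target genes 3 rose and 6 fell with Sal and 1 rose and 6 fell with S + D, with a median log2 fold change of -0.04 in both. Of all genes, 26.3% rose and 26.8% fell with Sal, and 27.0% rose and 27.9% fell with S + D. OAS2 went from 10.2 ± 0.445 CPM to 0.652 ± 0.242 with Sal and 0.594 ± 0.265 with S + D (-4.10 ± 0.33, adjusted p = 2.33e-08), OAS3 was at -2.74 ± 0.27 and IFIT3 at -2.11 ± 0.15 with S + D. With Das none of the 15 rose and 6 fell, against 10.5% and 9.36% of all genes.

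Of 19 STAT3 targets 17 were tested, and with S + D at 72 h 4 rose and 11 fell (median -1.30). With Sal 3 rose and 9 fell (median -0.67), and with Das none rose and 10 fell (median -0.84). The shares of all genes that rose and fell were 27.0% and 27.9% under S + D, 26.3% and 26.8% under Sal, and 10.5% and 9.36% under Das. FOS went from 49.7 ± 13.1 to 1.73 ± 0.344 CPM with S + D (-4.86 ± 0.32), CCND1, which encodes cyclin D1, from 282 ± 6.33 to 17.9 ± 2.31 (-3.99 ± 0.19), and BIRC5, which encodes survivin, from 148 ± 14.1 to 14.5 ± 7.95 (-3.36 ± 0.41). FOS, CCND1 and BIRC5 are also expressed under the control of other pathways, which these counts do not separate. Of 12 STAT5 targets 9 were tested, and 1 rose and 5 fell with S + D (median -1.12), among them CCND1 again, ID1 (-3.42 ± 0.45) and PRLR, the prolactin receptor (115 ± 17.4 to 28.4 ± 7.06 CPM). Of 9 STAT6 targets only 3 were expressed well enough to test, and all 3 fell with S + D, which were ALOX15 (-3.48 ± 0.38), CISH and IL4R (-0.45 ± 0.11, adjusted p = 0.00208). ALOX15 was at 2.12 ± 0.254 CPM in the control and 0.191 ± 0.0577 with S + D. The lists overlap, so their counts are not separate observations. CISH stands in the STAT5, STAT6 and other SOCS lists, and CCND1, PIM1 and BCL2L1 stand in those of STAT3 and STAT5. IL4R and PRLR also stand among the receptors, IL6 and OSM among the ligands, and USP18 among the brakes and the interferon targets.

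**Figure D5:**
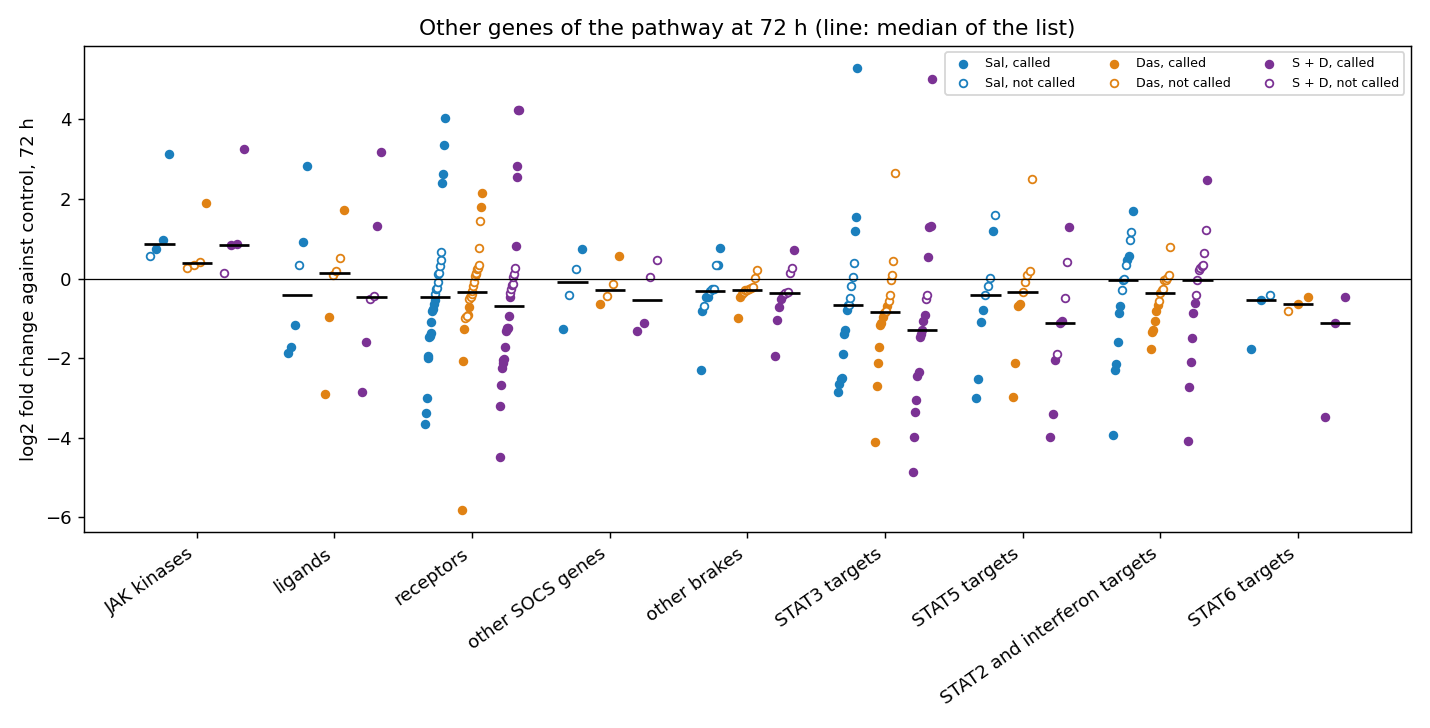
log2 fold change at 72 h (y axis) of every tested gene of 9 lists (x axis) with Sal, Das and S + D, each point being a gene, filled at an adjusted p under 0.01, and black lines the medians. The JAK kinases lie above 0, the STAT3 targets mostly below (median -1.30 with S + D), and the interferon targets on both sides of 0 (median -0.04 with S + D).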

How the data were processed

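Total RNA of MDA-MB-468 cells was made into TruSeq libraries and sequenced as single-end reads. The submitters' processing notes name bcl2fastq 2.19, STAR 2.5.2, Cufflinks 2.1.1, DESeq2 and the build GRCh37. The authors deposited 1 table with 32 columns of raw read counts for 48804 Ensembl genes, which had not been normalized. The program that counted reads, its annotation and its use of strand are not given in the sources used here. Of the identifiers, 46537 matched a symbol, and coordinates and exon lengths were taken from GENCODE on GRCh37. Groups came from the sample labels.

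The tests across genes used edgeR 4.0.16 under R 4.3.3 (TMM, filterByExpr with a minimum count of 10, quasi-likelihood test, Benjamini-Hochberg over all genes tested). Fits held the 16 libraries of a time point (16357 genes at 24 h, 16682 at 72 h) or all 32 (17227 genes) where times were compared. The SE is the absolute log2 fold change divided by the square root of the F statistic, and 95% intervals are normal intervals from that SE. These intervals are somewhat narrower than the quasi-likelihood test implies. For SOCS3 with S + D at 24 h the interval was -1.191 to -0.02, whereas the unadjusted p of that test was 0.0599. Since all 9 genes passed the filter, no permutation test was needed. CPM are counts scaled by library total and TMM factor over the 32 libraries, and levels of different genes were compared per kilobase of exon. Likeness used log2 CPM with a prior count of 2. Alternatives were RLE normalization, no filter, a replicate block, a term for the unnumbered libraries, numbered libraries only, only the groups compared, all 32 libraries in 1 fit, DESeq2 1.42.0, other cutoffs and each library left out. Replicates of a group differed by at least 1.87 in chi-square per gene, more than sampling noise.

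The genes and lists were chosen with earlier results of these data known. From each pathway list the text names the JAK kinases and SOCS genes in full and otherwise the 3 genes with the largest change with S + D at 72 h among those called and at a mean of 1 CPM or more. On simulated counts of S + D at 72 h against control over 16370 genes, the procedure recovered 85% of 100 genes changed by 1 on the log2 scale and 100% of 100 changed by 2, with 1 wrong call. For the change of the Sal response over 16682 genes it recovered 75% and 96% with 2 wrong calls. The simulated counts had the same spread setting for every gene and no shared shift of the unnumbered libraries. In the real data, replicates of a group differed by up to 157 in chi-square per gene. These rates therefore check the procedure and do not give its recovery or error in the real data. Deposited read counts carry no molecular identifiers, so counting intervals cover counting error only.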

Additional observations from a re-analysis of the deposited data

Results flagged for a closer look

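Among the 72 sets of 4 libraries (9 genes in 8 conditions), 9 had 1 library whose gap to the next exceeded the 95% critical value of Dixon's test, and chance flags about 1 in 20. The library standing apart was an unnumbered one in 5 of the 9. These were STAT2 with Sal at 24 h (160 CPM against 83.5 to 86.3), STAT3 with S + D at 24 h (235 against 205 to 206), STAT3 with Sal at 72 h (260 against 205 to 213), SOCS2 with Sal at 72 h (4.45 against 9.71 to 10.2) and SOCS3 with S + D at 24 h (6.53 against 2.91 to 3.32). A numbered library stood apart in the other 4, which were STAT4 in control replicate 3 at 72 h (0.389 CPM against 0.485 to 0.503), STAT5A in Sal replicate 1 at 72 h (5.50 against 3.89 to 4.12), SOCS1 in S + D replicate 3 at 24 h (0.359 against 0.703 to 0.754) and SOCS2 in Das replicate 1 at 72 h (3.30 against 2.52 to 2.60).

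The response differed between 72 h and 24 h by the interaction of treatment and time in 10 cases (edgeR, adjusted p under 0.01). With Sal the differences of log2 fold changes were 1.62 for STAT2, -0.48 for STAT3, -1.82 for STAT5A, -0.66 for STAT5B, -0.77 for STAT6 and 1.49 for SOCS2. With S + D they were 1.17 for STAT2, -1.13 for STAT5A, -0.89 for STAT6 and 1.36 for SOCS2.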

How the results depend on the processing

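Of the values of single genes, none reversed a called direction under any alternative run. RLE changed 0 of 144 calls, DESeq2 6, no filter 3, the term for the unnumbered libraries 13, the numbered libraries alone 21, 1 fit of all 32 libraries 8 of 108, and fitting only the groups compared 9 of 98 (SOCS1 in S + D against Sal at 72 h fell under that filter and has no value). The 7 calls with Sal and the 9 with S + D at 72 h held under all of these and with every library left out. Libraries that shared a replicate number from 1 to 3 had a median r of deviations of 0.15 to 0.18 (lowest -0.03). Pairs with different labels, which include the unnumbered libraries, had a median of -0.04 (from -0.52 to 0.35). Whether the numbers pair the libraries was not tested. A replicate block, with the unnumbered libraries as their own level, changed 11 of 144 calls, all gained. The cause of the changes was not tested. Depth limits SOCS1 and STAT4, at 2 to 58 and 13 to 80 reads at 72 h.

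Counts of the 9 genes that moved by over 1.5 times were as follows, smaller moves being left out. At an adjusted p under 0.01 with a log2 fold change over 1.5, Sal and Das at 24 h each had 0 higher and 0 lower, and there were 0 higher and 1 lower with S + D at 24 h, 2 lower with Sal at 72 h, 0 higher and 1 lower with Das at 72 h and 1 lower with S + D at 72 h. They were 0 lower in S + D against Sal at 24 h, 0 higher in that at 72 h and against Das at 24 h, 0 each way against Das at 72 h, 0 higher for the interaction at 72 h, 1 each way for the change of the Sal response and 0 each way for that of S + D. At an adjusted p under 0.05, 2 were lower with Sal at 24 h, 2 higher in S + D against Sal at each time, 2 higher with Das at 72 h, 4 higher for the interaction at 72 h and 1 higher in control over time. With the replicate block, 2 were higher and 2 lower in S + D against Sal at 24 h, 2 higher and 1 lower at 72 h, 4 higher for the interaction at 72 h and 1 higher in control over time. The unnumbered term gave the same counts and 2 higher with Das at 72 h. Numbered libraries alone gave 2 lower with Sal and 4 with S + D at 24 h, 2 each way in S + D against Sal and 1 lower against Das at 24 h, 0 higher and 1 lower in S + D against Sal and 1 higher against Das at 72 h, 1 higher in control over time, and 1 and 4 lower for the change of the Das and S + D responses. DESeq2 gave 2 lower with Sal at 24 h, 2 higher in S + D against Sal at each time and 1 higher in control over time. All 32 libraries gave 0 lower with Sal, 1 each way with Das and 0 higher in S + D against Das at 24 h, 2 higher in S + D against Sal and 4 for the interaction at 72 h. Only the groups compared gave 0 higher with Sal and 1 lower with Das at 24 h, 0 higher in S + D against Sal and 1 against Das at 72 h, and 1 each way in control over time. No filter gave 1 higher with Das at 24 h and for the interaction at 72 h.

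With 1 library left out, the counts ran from 0 to 0 lower with Sal at 24 h, 0 to 1 higher and 1 to 2 lower with Das at 24 h, 0 to 1 higher in S + D against Sal at either time, 0 to 0 higher against Das at 24 h, 1 to 4 lower with Das at 72 h, 2 to 3 higher in S + D against Das at 72 h, 1 to 4 higher for the interaction at 72 h, 4 to 5 lower for the change of the Sal response and 0 to 1 higher for that of Das. Of the pathway lists at 72 h, numbered libraries alone gave 1 ligand lower with Das, 1 brake higher with Sal, 2 STAT5 targets and 2 interferon targets higher with S + D, and RLE gave 0 other SOCS genes higher with Das.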
